A study of Mus musculus with 6 samples.

Results

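Bmp4, its type I receptor gene Bmpr1a, the signal transducer genes Smad1 and Smad5, the inhibitory Smad6 and the target genes Id1, Id2, Id3 and Id4 were followed in mouse embryonic stem (ES) cells that lack Dppa4. The members were all probe sets of the array whose annotated gene symbol was exactly one of these 9 genes, which gave 22 of the 45037 probe sets tested and 9 of 18193 genes. The product of Dppa4 is a nuclear protein that binds chromatin in pluripotent cells, and the study asked whether the ES cell state needs it. Biotin-labelled total RNA from 6 samples was measured on Affymetrix arrays. The 3 parental samples came from an ES cell line that is hemizygous for Dppa4, and the 3 knockout samples from a Dppa4 knockout ES cell line. Each genotype was thus represented by 1 cell line, and every culture of both lines also held mouse embryonic fibroblasts as feeder cells. The labels name neither strain nor passage.

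Bone morphogenetic proteins (BMPs) are secreted ligands of the TGF-beta family. A ligand such as BMP4 brings together type I receptors, among them the product of Bmpr1a, and type II receptors, and the type I receptor then phosphorylates SMAD1 and SMAD5. These enter the nucleus with SMAD4 and switch on target genes, of which the Id genes are the best known, while SMAD6 is an inhibitor that closes a negative feedback loop. Id proteins hold a helix-loop-helix domain without a DNA-binding region, so they take up E proteins and keep basic helix-loop-helix factors from acting. In mouse ES cells, BMP signalling through Id genes is known to help hold back neural differentiation together with LIF, and feeder cells are a known source of BMP ligand.

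Promoter sequences are shown for Bmp4, the member with the largest difference between the lines, and for the Id genes with an entry, which are direct targets of SMAD1 and SMAD5. Each run is the 250 bases before the annotated start of transcription, 5′ to 3′ on the gene's strand, from RefSeq on GRCm38.p6. The windows are chr14:46390670-46390919 (minus strand) for Bmp4, chr12:25096093-25096342 (minus strand) for Id2, chr4:136143572-136143821 (plus strand) for Id3 and chr13:48260866-48261115 (plus strand) for Id4. Capitals mark GGCGCC, a GC-rich motif known from BMP-responsive elements, and GTCT, the core of the Smad-binding element, which reads AGAC on the opposite strand. Both strands were searched, and the motifs share no letters with each other as full matches in these 4 windows.
Bmp4: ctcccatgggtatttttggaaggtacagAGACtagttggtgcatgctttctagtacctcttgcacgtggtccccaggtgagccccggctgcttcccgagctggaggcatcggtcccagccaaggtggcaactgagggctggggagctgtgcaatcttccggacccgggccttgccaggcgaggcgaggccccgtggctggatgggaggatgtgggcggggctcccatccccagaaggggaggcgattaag
Id2: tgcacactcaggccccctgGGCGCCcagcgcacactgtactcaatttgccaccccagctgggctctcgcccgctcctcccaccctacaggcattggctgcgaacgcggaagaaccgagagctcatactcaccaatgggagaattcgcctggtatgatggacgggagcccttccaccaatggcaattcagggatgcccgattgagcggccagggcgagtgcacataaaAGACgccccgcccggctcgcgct
Id3: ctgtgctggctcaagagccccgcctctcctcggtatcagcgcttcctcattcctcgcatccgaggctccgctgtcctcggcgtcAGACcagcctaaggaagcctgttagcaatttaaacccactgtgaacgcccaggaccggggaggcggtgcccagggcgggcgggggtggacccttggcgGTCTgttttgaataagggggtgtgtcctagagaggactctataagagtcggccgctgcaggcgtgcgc
Id4: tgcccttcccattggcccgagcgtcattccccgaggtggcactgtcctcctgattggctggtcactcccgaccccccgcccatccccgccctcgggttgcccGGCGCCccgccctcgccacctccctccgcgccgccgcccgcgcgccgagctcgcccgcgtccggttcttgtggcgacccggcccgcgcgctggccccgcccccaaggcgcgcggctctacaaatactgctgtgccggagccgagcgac
GGCGCC stood in the windows of Id2, at 231 to 226 bases before the start, and of Id4, at 148 to 143 bases, and in neither that of Id3 nor that of Bmp4. GTCT or AGAC stood at 222 to 219 bases in Bmp4, at 23 to 20 bases in Id2, and at 166 to 163 and 68 to 65 bases in Id3. Of 32851 RefSeq promoter windows of the same length, 9.59% held GGCGCC and 82.9% held GTCT, so that the shorter motif separates few promoters. Over all members, 8 genes had 10 windows, of which 4 held GGCGCC and 7 held GTCT. Windows are not separate genes here, since Smad5 had several. Those of Smad5 that begin at 56702760 and 56702802 on chromosome 13 overlap and hold the same GTCT. A match describes letters and was not tested for binding.

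Values are log2 expression per probe set after RMA (robust multi-array average), and differences are knockout minus parental on that log2 scale. Across probe sets, pairs of arrays correlated between 0.994 and 0.997. The targeted gene Dppa4 (1429597_at) read 10.30, 10.35 and 10.45 on parental and 8.68, 8.84 and 8.68 on knockout arrays, and whether this probe set covers the deleted sequence is unknown here. All 10 ES cell markers examined were above the background level of 3.79, the 95th percentile of 78 olfactory and vomeronasal receptor probe sets. Their mean was 10.97 ± 0.02 on parental and 10.92 ± 0.01 on knockout arrays (SD, n = 3; exact permutation p = 0.1, the minimum here), and the groups did not overlap. Limma called 0 of the 10, and 1, Nanog, was lower at an unadjusted p under 0.05 (-0.49, adjusted p = 0.122). The direction was mixed, and Nanog differed most. Pou5f1, Sox2, Zfp42 and Esrrb were lower, by -0.06 to -0.18, while Klf4, Tdgf1, Dppa5a, Utf1 and Lin28a were higher, by 0.003 to 0.13. The difference of the mean thus does not describe the markers in general. All 25 feeder fibroblast markers measured were above background as well. Their mean lay between 10.37 and 10.50 on parental and between 10.42 and 10.63 on knockout arrays (difference 0.12, two-sided exact permutation p = 0.2). Limma called 0 of the 25, with 2 higher at an unadjusted p under 0.05, beside 4.30% of all probe sets. Only Tagln (-0.02) and Acta2 (-0.06) were lower, and Col1a1 did not differ. All other feeder markers were higher in knockout samples, by up to 0.27 (Pdgfrb), where 49.7% of all probe sets were higher. This shared direction was not tested. In such mixed cultures, more or fewer cells of one type and more or less RNA per cell cannot be told apart.

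None of the 22 member probe sets passed limma's test at an adjusted p under 0.05, where 0.402% of all probe sets did (0.0688% higher and 0.333% lower). At an unadjusted p under 0.05 there were 6 members, 4 higher and 2 lower in knockout samples, beside 9.49% of all probe sets (4.30% higher and 5.19% lower). Knockout and parental values did not overlap for 8 of 22, 5 higher and 3 lower, beside 14.2% of all probe sets (6.71% higher and 7.52% lower). These 8 came from 6 genes, and probe sets of 1 gene share their target, so they are not separate observations. Of the members, 21 were above background in at least 1 group, and the 8 without overlap were all among these. Of all probe sets, 26727 were above background, and 4688 of those did not overlap, a larger share than the 14.2%. The median difference of the 22 was 0.01, beside 0 for all probe sets. In the ligand, receptor and Smad genes 11 of 14 probe sets were higher in knockout samples, with a median difference of 0.16. In the Id genes 7 of 8 were lower, with a median of -0.12. Of all probe sets, 49.7% were higher and 49.2% lower. This division by role was made after the values were seen and has no test, and probe sets of 1 gene are counted singly in it.

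**Figure D1:**
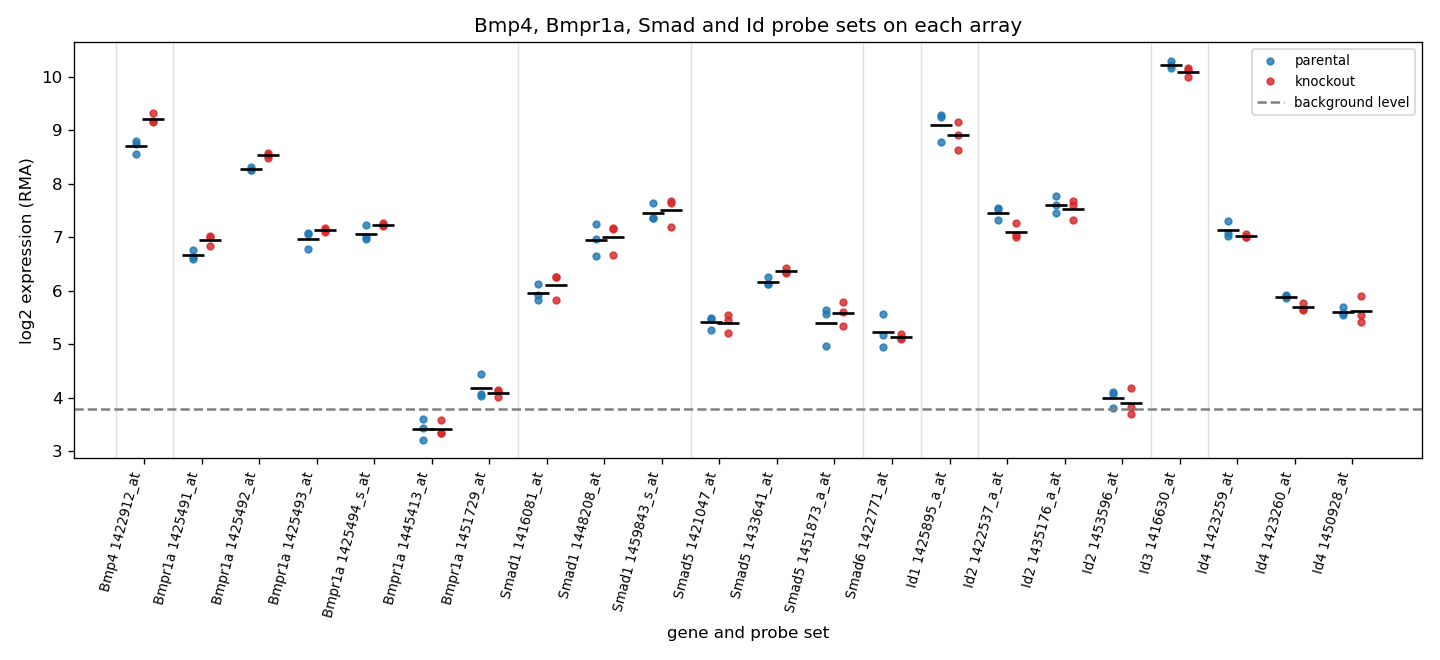
Log2 expression (vertical axis) of the 22 member probe sets (horizontal axis) on each array, with parental arrays in blue, knockout arrays in red, group means as black bars and the background level of 3.79 as a dashed line. Heights of different probe sets are not comparable; within a probe set, Bmp4 shows the widest separation of the groups, and 1445413_at of Bmpr1a lies below background.

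**Figure D2:**
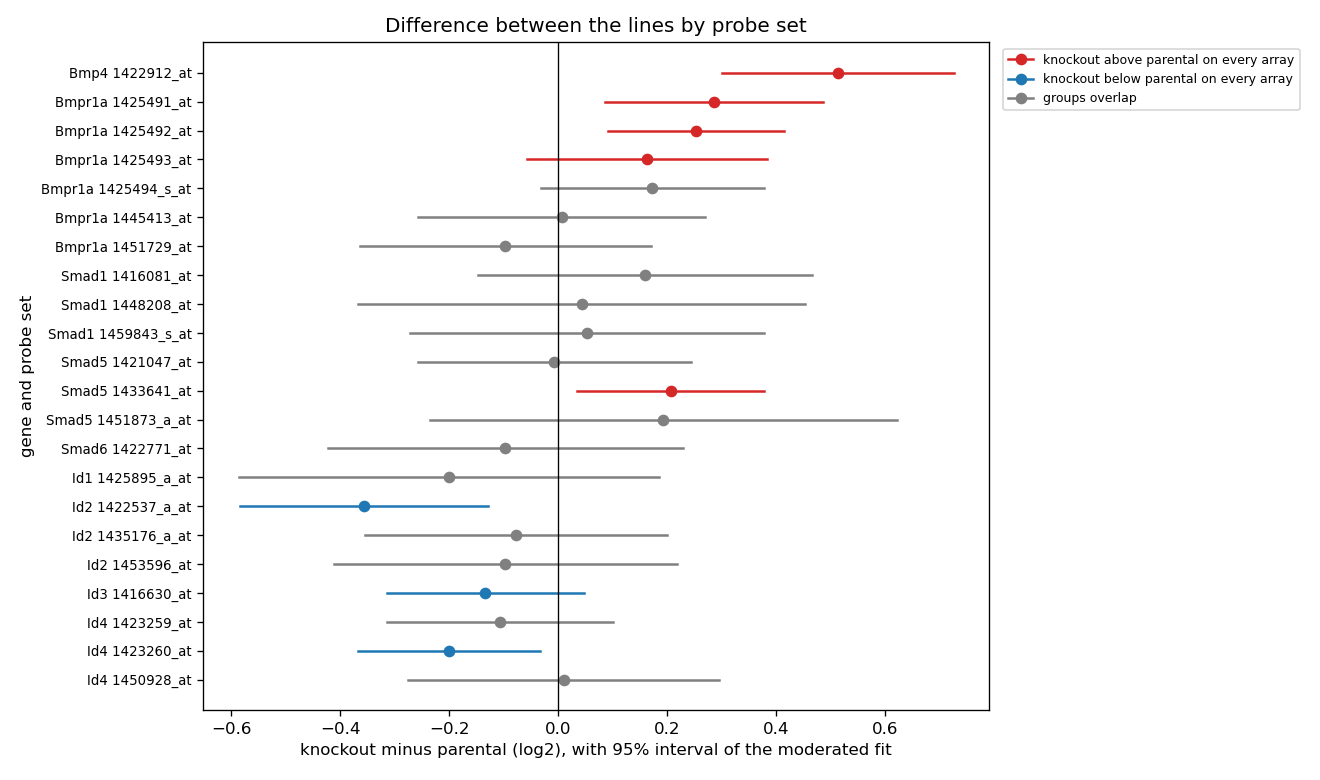
Difference between knockout and parental means (horizontal axis, log2) for each member probe set, with the 95% interval of limma's moderated fit. Red points are probe sets whose knockout arrays all lay above the parental arrays, blue points the reverse and grey points those that overlap; the intervals of 6 probe sets lie wholly on one side of 0.

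Bmp4, the ligand gene, differed most among the members. Its single probe set 1422912_at read 8.80, 8.75 and 8.56 on parental arrays and 9.33, 9.15 and 9.17 on knockout arrays. Every knockout array was above every parental array, with a gap of 0.35 between the groups. The means were 8.70 ± 0.13 and 9.22 ± 0.10 (SD, n = 3), a 1.43-fold higher signal in the knockout line. The difference of 0.51 (SE 0.09, 95% interval 0.30 to 0.73) gave an adjusted p of 0.0793 with limma, just outside the threshold, and the two-sided exact permutation p was 0.1, which is the lowest value that 3 arrays per group allow. Of all probe sets, 99.1% differed by less in absolute size.

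Bmp4 passed the threshold under 2 of 15 other settings. With an intensity trend and a robust prior the adjusted p was 0.0239, and with 1 row per gene, over 18193 genes, it was 0.0447 (limma, both at the same difference of 0.51). The fit by gene changed the SE (0.0861, from 0.0928) as well as the number of features, and fits that only removed probe sets gave 0.0694 (above background) and 0.0816 (without the s_at, x_at and a_at endings). Under the other 13 settings the adjusted p lay between 0.0694 and 0.318. The difference lay between 0.43 and 0.56 under all 15, but several of these settings could not change it. It was 0.51 by construction with the replicate block, the trend and robust prior and no moderation. The same holds for the probe set filters and the fit by gene. The lowest difference came with the feeder marker mean as a covariate (0.43, SE 0.11, adjusted p = 0.283). The feeder marker mean was also higher in knockout samples, by 0.12, and their part in the Bmp4 difference was not tested beyond this fit.

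**Figure D3:**
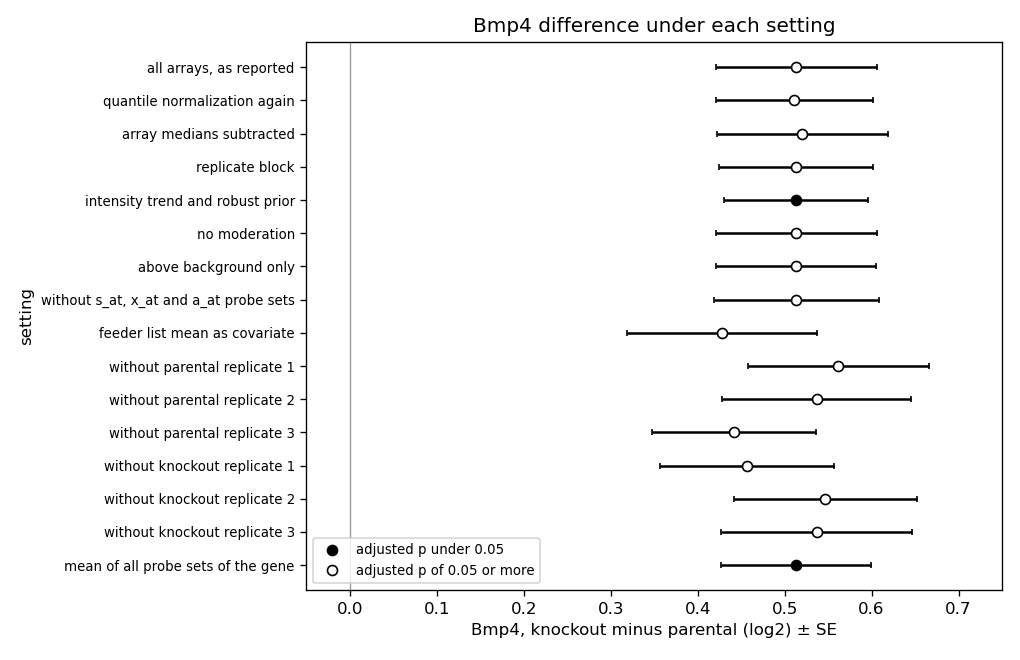
Difference of Bmp4 between knockout and parental samples (horizontal axis, log2, bars are ± SE) as reported and under 15 other settings (vertical axis). Filled points have an adjusted p under 0.05; they are the fit with an intensity trend and robust prior and the fit with 1 row per gene, and all points lie between 0.43 and 0.56.

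The genes whose profile over the 6 arrays was closest to that of Bmp4 were Ldhc, a lactate dehydrogenase gene of the testis, Medag and Stmn3, a stathmin family gene. Closeness was the root mean square difference between profiles, each taken relative to its own parental mean. It was 0.06 for Ldhc (1415847_at) and 0.07 for both Medag (1426937_at) and Stmn3 (1435113_x_at). Ldhc read 6.14, 6.08 and 5.96 on parental and 6.62, 6.59 and 6.45 on knockout arrays, a difference of 0.49. Medag differed by 0.50 and Stmn3 by 0.51. Since the 3 genes were chosen for their closeness to Bmp4 on these arrays, their differences describe that choice and support nothing about Bmp4.

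Bmpr1a encodes the type I receptor ALK3, through which BMP4 acts on SMAD1 and SMAD5. Of its 6 probe sets, 5 were higher in knockout samples, 3 of them without overlap, and 0 passed (limma; 2 at an unadjusted p under 0.05, both higher). The probe set 1425492_at read 8.25, 8.32 and 8.26 on parental and 8.49, 8.53 and 8.57 on knockout arrays. The spread within groups was small here (8.28 ± 0.04 and 8.53 ± 0.04, SD, n = 3), and the groups stood 0.17 apart. The difference was 0.25 (SE 0.07, 95% interval 0.09 to 0.41, adjusted p = 0.279). The largest difference of the gene was on 1425491_at, with 6.77, 6.59 and 6.63 on parental and 7.02, 6.83 and 7.00 on knockout arrays (0.29, SE 0.09, adjusted p = 0.331).

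The next pair of Bmpr1a probe sets gave smaller differences in the same direction. On 1425493_at the values were 7.08, 6.78 and 7.06 in parental and 7.10, 7.17 and 7.14 in knockout samples, a gap of 0.02 between groups (difference 0.16, adjusted p = 0.667; 0.067 without parental replicate 2). On 1425494_s_at they were 7.23, 6.96 and 7.00 against 7.27, 7.21 and 7.23, where parental replicate 1 overlapped the knockout arrays (difference 0.17, adjusted p = 0.605). The dim probe set 1451729_at differed by -0.10 (95% interval -0.36 to 0.17), and 1445413_at, below background on average in both groups, by 0.01. The sign thus depended on the probe set, and the 4 brighter ones shared it. The mean of all 6 probe sets differed by 0.13 (SE 0.06, adjusted p = 0.527, limma over genes).

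Smad1 and Smad5 encode the receptor-regulated Smads of the BMP pathway, and limma called none of their 6 probe sets. At an unadjusted p under 0.05, 1 was higher, beside 4.30% of all probe sets. For Smad5, 1433641_at read 6.25, 6.13 and 6.13 on parental and 6.36, 6.43 and 6.34 on knockout arrays. The knockout arrays were all higher, with a gap of 0.09 (difference 0.21, SE 0.07, 95% interval 0.03 to 0.38, adjusted p = 0.435, limma). The other Smad5 probe sets overlapped between groups. On 1421047_at the difference was -0.01 (95% interval -0.26 to 0.24). On 1451873_a_at it was 0.19 (95% interval -0.24 to 0.62), with parental replicate 3 at 4.96 and all other arrays between 5.35 and 5.80; without that array the difference was -0.02.

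Smad1 varied more within the lines than between them. Its probe set 1448208_at read 6.97, 7.25 and 6.65 on parental and 7.16, 6.67 and 7.17 on knockout arrays. On 1459843_s_at the values were 7.37, 7.64 and 7.36 against 7.68, 7.20 and 7.65, and on 1416081_at they were 5.82, 6.12 and 5.92 against 6.25, 5.83 and 6.26. All 3 probe sets were highest in parental replicate 2 within the parental line and lowest in knockout replicate 2 within the knockout line. The differences were 0.04, 0.05 and 0.16, and the mean over the 3 probe sets differed by 0.09 (SE 0.14, adjusted p = 0.896, limma over genes). The interval of 1448208_at, -0.37 to 0.45, leaves room for a difference of either sign.

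The arrays with high Smad1 were those with a high feeder marker mean, but single feeder markers did not all follow it. Thy1 did, with 10.44, 10.84 and 10.18 on parental and 10.66, 10.16 and 10.85 on knockout arrays. Col3a1 ran the other way, with 12.10, 11.89 and 12.49 on parental and 12.34, 12.59 and 12.08 on knockout arrays. The mean thus does not describe every feeder marker. The feeder marker mean was 10.38, 10.50 and 10.37 on parental and 10.63, 10.42 and 10.55 on knockout arrays. With that mean as a covariate, the Smad1 differences changed sign, to -0.29 on 1448208_at, -0.22 on 1459843_s_at and -0.08 on 1416081_at (lowest adjusted p = 0.520, limma). The part of feeder cells in the Smad1 signal was not tested further. Grem1, a secreted BMP antagonist singled out after its values were seen, followed the same arrays with a wider swing: 8.25, 9.20 and 7.89 on parental and 8.90, 7.94 and 9.32 on knockout arrays. Its difference between the lines was 0.27, with a 95% interval of -0.64 to 1.18.

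**Figure D4:**
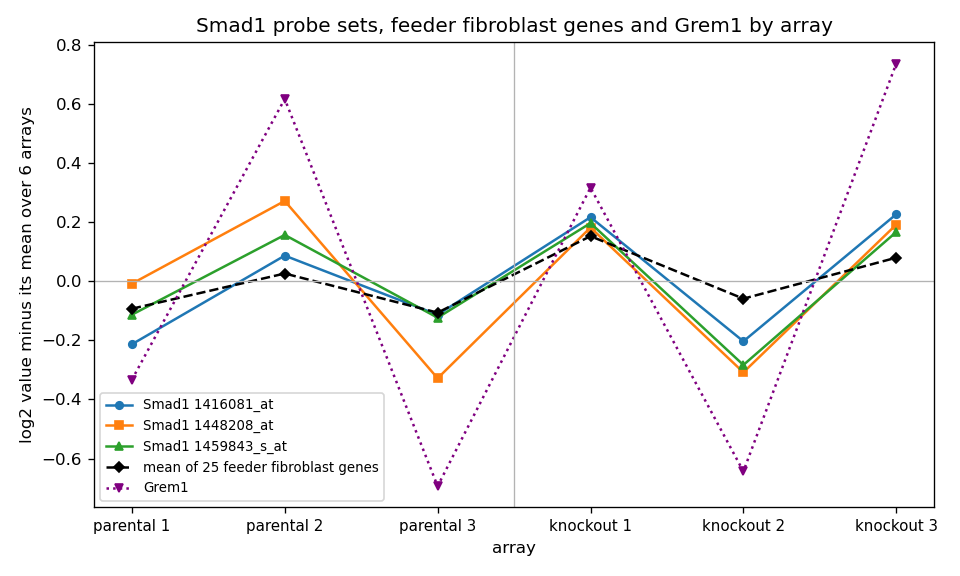
Log2 values of the 3 Smad1 probe sets, of Grem1 and of the mean of 25 feeder fibroblast genes on each array (horizontal axis), each as its deviation from its own mean over the 6 arrays (vertical axis, log2). Lines only join the points of 1 series, since replicates have no order; all 5 series are higher in parental replicate 2 and in knockout replicates 1 and 3 than in parental replicate 3 and knockout replicate 2.

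Smad6, the inhibitory Smad of the pathway and itself a BMP target, read 5.17, 5.56 and 4.95 on parental and 5.19, 5.09 and 5.11 on knockout arrays (1422771_at). The parental values surrounded the knockout values, which lay close together. The difference was -0.10 (SE 0.14, 95% interval -0.42 to 0.23, adjusted p = 0.888, limma), and without parental replicate 2 it was 0.07.

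The Id genes are known read-outs of BMP and SMAD activity. None of their 8 probe sets passed with limma, and 2 were lower at an unadjusted p under 0.05, beside 5.19% of all probe sets. The groups did not overlap for 3 of the 8, all lower, beside 14.2% of all probe sets (7.52% lower). Id1 was spread widely: 9.25, 8.78 and 9.28 on parental and 9.16, 8.92 and 8.63 on knockout arrays (1425895_a_at). The groups overlapped, and the difference of -0.20 had an interval of -0.59 to 0.19 (SE 0.17, adjusted p = 0.783). Without 1 array it ran from -0.36 (without parental replicate 2) to -0.063 (without knockout replicate 3). Id3 was tighter, with 10.17, 10.23 and 10.29 on parental and 10.13, 10.00 and 10.16 on knockout arrays (1416630_at). Its groups were separated by 0.01, close to the rounding of the deposited values, and differed by -0.13 (SE 0.08, 95% interval -0.31 to 0.05, adjusted p = 0.671; -0.085 without knockout replicate 2).

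Id2 gave different sizes on its probe sets. On 1422537_a_at it read 7.52, 7.32 and 7.55 on parental and 7.26, 7.01 and 7.05 on knockout arrays. All knockout arrays were lower, and the knockout signal was 78.1% of the parental signal (difference -0.36, SE 0.10, 95% interval -0.58 to -0.13, adjusted p = 0.279, limma). On 1435176_a_at the values were 7.61, 7.45 and 7.78 against 7.68, 7.61 and 7.32, and the groups overlapped (difference -0.08, 95% interval -0.35 to 0.20). The dim 1453596_at differed by -0.10 (95% interval -0.41 to 0.22). The mean of the 3 probe sets differed by -0.18 (SE 0.09, adjusted p = 0.570, limma over genes).

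Id4 likewise had 1 probe set of 3 without overlap. On 1423260_at it read 5.86, 5.90 and 5.92 on parental and 5.66, 5.77 and 5.65 on knockout arrays. The knockout arrays were all lower, by -0.20 on average (SE 0.07, 95% interval -0.37 to -0.03, adjusted p = 0.438, limma). On 1423259_at the values were 7.02, 7.08 and 7.30 against 7.01, 7.00 and 7.07, which overlapped (difference -0.11, adjusted p = 0.785). That difference was -0.023 without parental replicate 3 and -0.16 without parental replicate 1. On 1450928_at knockout replicate 2 was the highest array at 5.90, the other knockout arrays read 5.42 and 5.54, and the difference was 0.01 (95% interval -0.28 to 0.30).

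Other genes of the pathway were taken from a list of ligands, receptors, Smads, antagonists, regulators, targets and E proteins. Of its 118 probe sets, from 54 genes, 84 were above background and limma called 0, beside 0.402% of all probe sets. Without adjustment, 3 were higher and 9 lower at a p under 0.05, beside 4.30% and 5.19% of all probe sets. Groups did not overlap for 20, which is 16.9% and near the 14.2% of all probe sets, and the median difference was 0.02. Above background, 14 of the 84 did not overlap, beside 4688 of 26727 among all probe sets above background. Among the 17 probe sets of other ligand genes, such as Bmp2 and Bmp7, 6 were above background, and none of these 6 separated the groups. Of the 27 receptor and co-receptor probe sets, 2 separated them, both of Eng (endoglin, a co-receptor). Of the 13 probe sets of further target genes, 6 were higher and 7 lower, and 1 separated the groups, 1449559_at of the homeobox gene Msx2 (-0.28, 95% interval -0.55 to -0.02, adjusted p = 0.490).

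The 4 largest differences without overlap above background were those of Skil, Smurf1, Eng and Zfp423, and none passed. Skil, which encodes the SMAD co-repressor SnoN, read 5.01, 5.42 and 5.00 on parental and 4.42, 4.64 and 4.82 on knockout arrays (1422054_a_at; difference -0.52, adjusted p = 0.272, limma). Its other probe set, 1452214_at, overlapped and differed by -0.16. Smurf1, a ubiquitin ligase that removes SMAD1 and SMAD5, differed by -0.41 on 1428396_at (adjusted p = 0.215) and by -0.03 on 1428395_at. Eng differed by -0.40 on 1432176_a_at (adjusted p = 0.310) and by -0.21 on 1417271_a_at. Zfp423, a DNA-binding partner of SMAD1, read 4.60, 4.62 and 4.87 on parental and 5.13, 5.13 and 4.95 on knockout arrays (1419380_at; difference 0.37, adjusted p = 0.255).

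**Figure D5:**
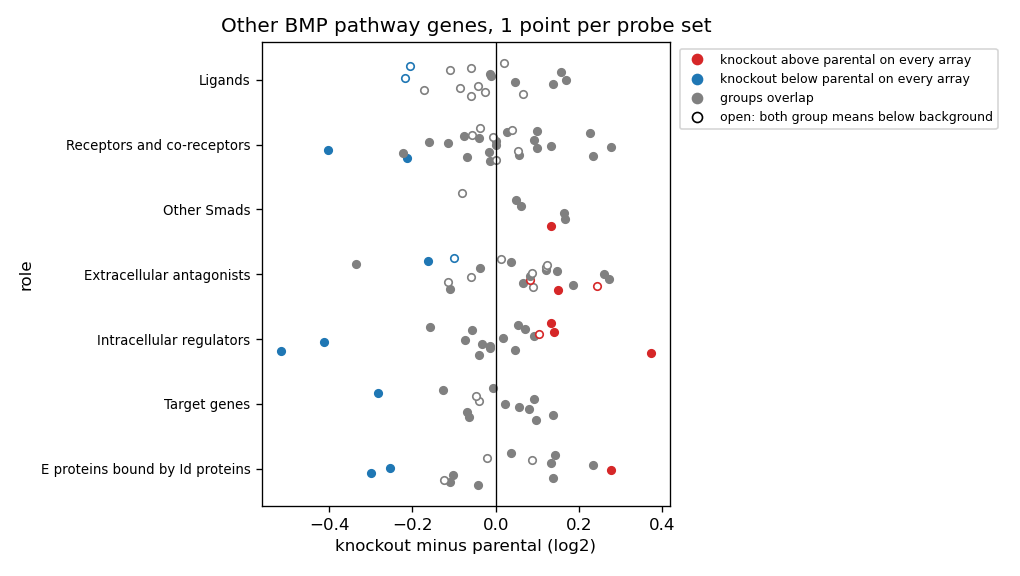
Difference between knockout and parental means (horizontal axis, log2) for the 118 probe sets of other BMP pathway genes, by role (vertical axis), with vertical offsets within a role only to part the points. Red and blue points are probe sets whose groups do not overlap, grey points overlap and open points are below background; the outermost points are Skil at -0.52 and Zfp423 at 0.37.

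Smad4 and Smad7, the other Smads of the list above background, and the E proteins that Id proteins bind are given for their roles and were named after their values were seen. Smad4, the partner of SMAD1 and SMAD5, was higher by 0.13, 0.17 and 0.16 on its 3 probe sets, without overlap on 1 of them (1422485_at, 8.84, 8.85 and 8.81 against 8.99, 8.97 and 8.94; adjusted p = 0.601, limma). Smad7, a second inhibitory Smad, differed by 0.06 and 0.05, with intervals of -0.34 to 0.46 and -0.21 to 0.31. Among the 14 probe sets of E protein genes, 3 separated the groups, which is 21.4% beside 14.2% of all probe sets. Tcf3, which encodes E2A, was lower without overlap on 1426297_at, with 7.54, 7.70 and 7.63 on parental and 7.29, 7.34 and 7.34 on knockout arrays (difference -0.30, adjusted p = 0.222). It was lower also on 1427764_a_at (-0.25, adjusted p = 0.339), while 1452542_x_at gave 0.04. Tcf12, which encodes HEB, was higher without overlap on 1427670_a_at (0.28, adjusted p = 0.329), and its other probe sets overlapped between groups. All 6 probe sets of Tcf4, the third E protein gene, overlapped, with 2 higher and 4 lower (-0.12 to 0.23).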

How the data were processed

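Expression was measured on 6 arrays, 3 per group. The authors deposited 1 table of log2 values per probe set and array, made with RMA per the submitters' processing notes; its version and settings are not stated there. The log2 scale was inferred from their range, 2.12 to 13.98. Because RMA equalises the distributions of arrays, a global shift of transcripts would not show. Of 45101 probe sets, 64 controls were left out. Genes were named from the platform annotation, and 1 listed gene, Hfe2, was matched as Hjv through its gene ID. Arrays were assigned to the lines by the line designations in the sample titles, which do not themselves state the genotype. All probe sets were fitted by lmFit and eBayes of limma 3.58.1 (R 4.3.3), two-sided and without covariates, and p-values were adjusted by Benjamini-Hochberg over 45037 probe sets, with 0.05 as the threshold. The procedure was tested on simulated data with changes of 1 and 2 log2 units and 1 common spread for all probe sets. It recovered 100% of them, but both sizes exceed the largest member difference of 0.51. That test therefore does not show how often differences of the members' size would be found.

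Every member probe set is named; from the pathway list, genes past the threshold or, as none passed, the 4 largest non-overlapping differences above background were named; the other pathway genes were named for their roles after their values were seen. The members and lists were chosen with earlier results of these data known. The labels do not state separate cultures, so p-values measure only the spread among these arrays, possibly a technical one. The number of arrays limits the precision. Alternatives were repeated quantile normalization, array medians subtracted, a replicate block, other variance models, filters on probe sets, a feeder covariate, gene means and leaving out each array.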

Additional observations from a re-analysis of the deposited data

How the results depend on the processing

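Under every alternative run, 0 member probe sets were called lower and 0 of the pathway list were called (limma); 1 member, Bmp4, was called higher with an intensity trend and robust prior, and 0 in the other probe set fits. The 181 calls over all probe sets became 88 with the replicate block (81 of them shared), 312 with the trend and robust prior (180 shared), 1 without moderation (0 shared), 69 with the feeder covariate (60 shared) and 70 to 112 without 1 array. Replicate numbers gave no consistent pairing: deviations from the group means of arrays with the same number correlated at 0.172, -0.463 and -0.400, and most arrays correlated best with another number. Parental replicate 2 correlated at 0.506 with knockout replicate 3, and parental replicate 3 at 0.497 with knockout replicate 2. What these arrays shared was not tested. The feeder marker difference was 0.068 to 0.17 without 1 array.

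Of the 22 member probe sets, 11 kept their direction under every alternative, among them the 8 whose groups did not overlap. For these 8, leaving out 1 array could not reverse the direction, since the groups do not overlap. The replicate block, the other variance models and the probe set filters leave every difference unchanged. Only the normalizations and the feeder covariate could thus have reversed these 8. Of the 11, those that moved over 1.5 times without 1 array were 1425493_at of Bmpr1a, Id1, Id3 and 1423259_at of Id4. The other 11 reversed under at least 1, with no call on either side; the cause was not tested. Probe sets removed by a filter have no value under it. With the feeder covariate, Smad1 gave -0.078 on 1416081_at, -0.29 on 1448208_at and -0.22 on 1459843_s_at, and Smad5 gave -0.064 on 1451873_a_at. Without 1 array the ranges that crossed 0 were -0.092 to 0.098 (1445413_at) and -0.17 to 0.035 (1451729_at) for Bmpr1a, -0.11 to 0.21 (1448208_at) and -0.032 to 0.21 (1459843_s_at) for Smad1, -0.078 to 0.092 (1421047_at) and -0.022 to 0.32 (1451873_a_at) for Smad5, -0.24 to 0.07 for Smad6, -0.16 to 0.032 (1435176_a_at) and -0.24 to 0.0083 (1453596_at) for Id2 and -0.13 to 0.11 (1450928_at) for Id4.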

Other observations

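BMP signalling is known to steer cells toward mesoderm and surface ectoderm and away from neural fates. The means of short marker lists of these lineages and of endoderm overlapped between the lines. The mesoderm, neural and endoderm means lay near the background level of 3.79, where a difference could be missed. The overlap therefore decides nothing about lineage. The mean of 7 mesoderm genes was 4.45 ± 0.05 on parental and 4.43 ± 0.09 on knockout arrays (SD, n = 3; two-sided exact permutation p = 0.7), with 6 of the 7 above background. The mean of 5 neural genes was 4.64 ± 0.08 and 4.58 ± 0.08 (exact permutation p = 0.6), with 3 above background. For 6 endoderm genes the means were 4.20 ± 0.20 and 4.21 ± 0.03 (exact permutation p = 1), with 5 above background. The mean of 4 surface ectoderm genes was 5.30 ± 0.45 and 5.33 ± 0.15 (exact permutation p = 1), with 3 above background. Parental replicate 3 was lowest at 4.78, the other arrays lying between 5.18 and 5.56. That low value came from Krt8 (7.23, 7.10 and 5.65 on parental arrays) and Krt18 (6.69, 6.85 and 5.39). Tfap2a did not show it (4.92, 4.81 and 4.82), and Krt14 was below background. In none of these lists did a gene pass limma's test or an unadjusted p under 0.05.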
